A study of Mus musculus with 6 samples.

Results

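The integrated stress response and amino acid supply genes are 34 genes of the Atf4 pathway, serine synthesis, amino acid carriage and tRNA charging, taken by their GRCm38 symbols from the 55421 genes of a count table. All 34 had a row in the table, and 32 were expressed highly enough to be tested among 13853 genes. The data come from mouse bone marrow-derived macrophages labelled WT, grown from marrow cells with 20 ng/mL M-CSF, the growth factor that turns marrow progenitors into macrophages. For 24 h, 3 wells were kept in a 1:1 mix of M-CSF medium and medium from LL-2, a mouse tumour line derived from Lewis lung carcinoma, and 3 wells in M-CSF medium alone. The M-CSF medium of both groups was RPMI-1640 with 10% fetal bovine serum and 1% penicillin/streptomycin. The labels give no strain, age or sex, and name no animal for a well. The p-values therefore reflect only well-to-well spread, which may be technical. The design asks what conditioned medium changes. It cannot tell products of the tumour cells apart from a lower share of fresh medium with its amino acids, serum and M-CSF, because no medium conditioned by other cells was among the samples analysed here.

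The integrated stress response is a shared answer of cells to amino acid shortage, misfolded protein in the endoplasmic reticulum (ER), viral RNA and haem lack. A set of kinases phosphorylates the initiation factor eIF2α, which slows general translation but lets the Atf4 messenger be translated, and the Atf4 protein then switches on genes for amino acid synthesis, import and tRNA charging. Much of Atf4's control is therefore translational, and its messenger level is only part of its activity. In macrophages this supply feeds protein secretion and glutathione synthesis.

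The libraries held 28447825 to 30040682 counts in the conditioned-medium wells and 24179548 to 25916709 in the untreated wells. A count of 0 allows up to 3 counts, or 0.0999 to 0.124 CPM (a gene's counts scaled to a common library size), for counting error only. Lyz2, a macrophage lysozyme gene, stood at 49293 ± 2156 CPM in conditioned medium and 45410 ± 4306 CPM in untreated wells (SD, n = 3 each), and was not called. Of the 9 macrophage markers, all were expressed highly enough to be tested, 3 rose (Csf1r, Mertk and Itgam) and 3 fell (Adgre1, Cd68 and Fcgr1). Adgre1, which encodes F4/80, had 1989 ± 52.0 CPM in conditioned medium and 2603 ± 121 CPM in untreated wells, and Csf1r, the M-CSF receptor gene, 5720 ± 270 CPM in conditioned medium and 4085 ± 480 CPM in untreated wells. Of the markers of other cells, 10 neutrophil genes summed to 736 to 841 CPM against 630 to 835 CPM in untreated wells, with Retnlg and Cxcr2 called higher and Camp and Ltf lower. The 8 mast cell and basophil genes summed to 6.64 to 13.3 CPM against 20.4 to 29.2 CPM in untreated wells, with 1 gene at 0 and all 6 tested called lower, and 7 stromal genes to 31.7 to 93.9 against 16.6 to 67.4 CPM. The 6 epithelial or carcinoma genes summed to 0.688 to 1.44 against 0.836 to 1.24 CPM in untreated wells, and 7 lymphocyte genes to 3.34 to 4.17 against 5.17 to 6.03 CPM. Among tested markers, 66.7% of macrophage, 40.0% of neutrophil and 100% of mast cell and basophil genes were called, against 27.9% of all tested genes. The shares were 33.3% for lymphocyte markers and 0.0% for stromal and for epithelial or carcinoma markers. The part of these other cells in the results below was not tested. In such bulk samples fewer cells of a type and less RNA per cell cannot be told apart.

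The 34 genes did not move together. Of the 32 tested, 6 rose and 7 fell in conditioned medium at an adjusted p below 0.05, and 19 did not pass. That is 40.6% called, against 27.9% of all tested genes. The risers were Eif2ak3, Cebpg, Sesn2, Eif4ebp1, Slc38a2 and Nars, against a background of 12.6% of all genes called higher. The fallers were Eif2ak4, Ddit3, Psat1, Mthfd2, Slc7a11, Slc7a1 and Wars, against 15.2% of all genes called lower. No tested member changed beyond 2-fold, where 5.63% of all genes lay. Log2 fold changes of the tested members ran from -0.89 to 0.82 with a median of -0.08, against a median of 0.013 over all tested genes. Without sign, the median was 0.24 for the members and 0.17 for all tested genes, so the typical member changed more than the typical gene. This difference was not tested, and the members were chosen with earlier results of these data known. Of the scarce Atf4 targets Asns, Trib3 and Chac1, Asns and Trib3 did not pass and Chac1 was too low to test. These genes do not stand for the list, whose called genes are named above.

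The levels of the 2 groups did not overlap for 18 of the 32 genes, against 42.8% of all tested genes. With the replicate number as a block, 7 rose and 11 fell, against 36.3% of all genes called under that fit. The block added Vldlr to the risers and Shmt2, Slc3a2, Slc1a5 and Gars to the fallers, and removed none. Among all tested genes, 1749 were called higher and 2112 lower. Without untreated replicate 2 only 1146 genes were called higher, and without conditioned-medium replicate 1 only 1160. Scaled by the total count alone, 2656 genes passed as higher and 1710 as lower (60.8% higher, against 45.3% with TMM scaling), while 8 members rose and 7 fell.

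**Figure D1:**
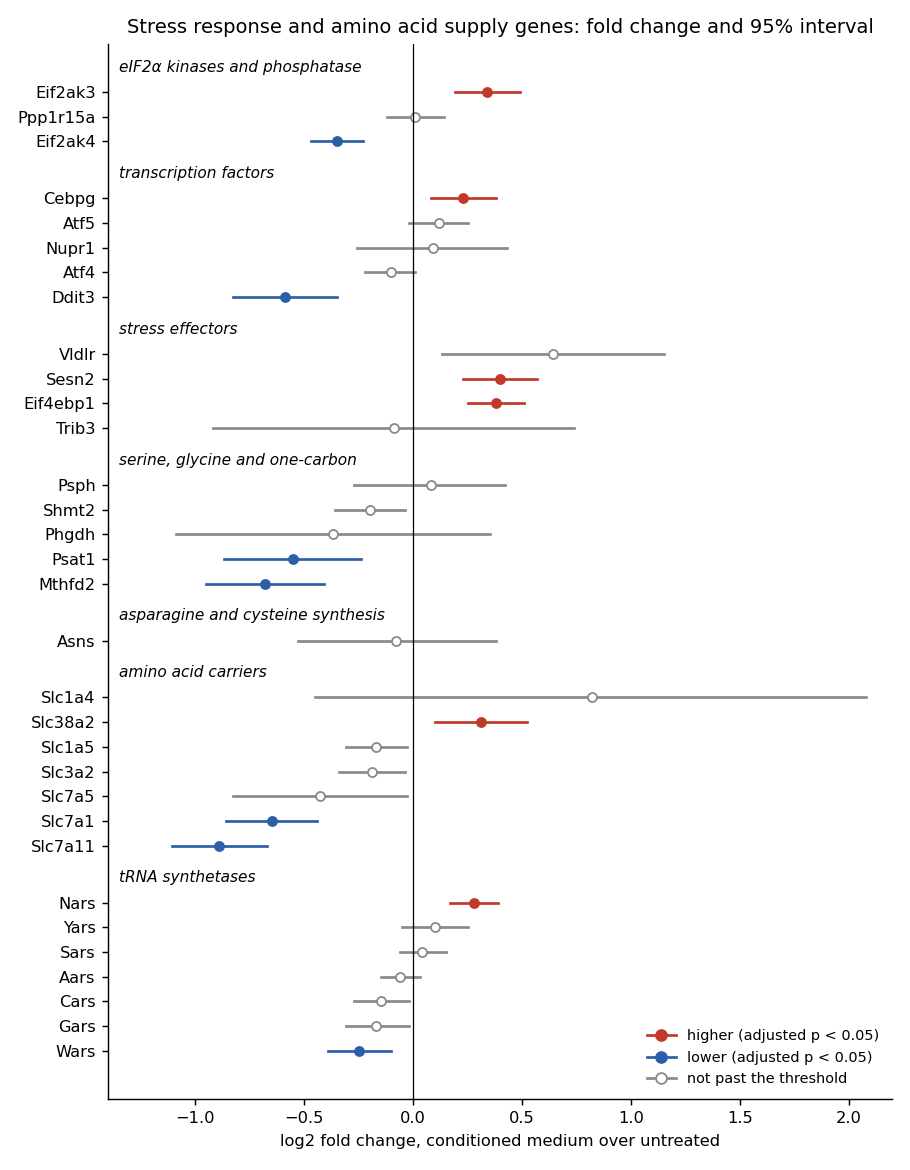
Log2 fold change (conditioned medium over untreated, x axis) of the 32 tested genes, ordered within their roles, with 95% intervals from the edgeR fit on 3 wells per group. Filled points passed an adjusted p of 0.05, and rises and falls occur side by side in most roles, from Slc7a11 at -0.89 to Sesn2 at 0.40 among the called genes.

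Atf4 binds composite elements known as C/EBP-ATF response elements, so the promoters were searched for the core letters TGATGNAA on both strands. The windows run from 250 bases before to 50 bases after a RefSeq transcript start, in build GRCm38.p6. Some genes have several windows, and 12 of the 32 windows have a start more than 100 bases inside the gene as the count table bounds it. A window was found for 27 of the 34 genes, and Cars, Cth, Eif4ebp1, Nars, Slc1a5, Slc7a5 and Wars had none in the table. The core was present for 10 of the 27 genes (37.0%), against 4.51% of the 27025 genes with a window. The members were listed as a known Atf4 pathway, so this share describes the list and is not a result about conditioned medium.

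The 5 windows below show the core, in capitals, in the gene that fell most, in Vldlr with its blocked call, and in Asns, Chac1 and Nupr1, which gave no call.
Slc7a11, chr3:50443564-50443863, minus strand: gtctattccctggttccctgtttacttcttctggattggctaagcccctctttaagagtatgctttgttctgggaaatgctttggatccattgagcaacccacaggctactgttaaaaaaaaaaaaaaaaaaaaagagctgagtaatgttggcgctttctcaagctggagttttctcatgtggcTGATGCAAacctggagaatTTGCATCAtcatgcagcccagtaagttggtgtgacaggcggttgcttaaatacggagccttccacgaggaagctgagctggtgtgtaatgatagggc
Asns, chr6:7693160-7693459, minus strand: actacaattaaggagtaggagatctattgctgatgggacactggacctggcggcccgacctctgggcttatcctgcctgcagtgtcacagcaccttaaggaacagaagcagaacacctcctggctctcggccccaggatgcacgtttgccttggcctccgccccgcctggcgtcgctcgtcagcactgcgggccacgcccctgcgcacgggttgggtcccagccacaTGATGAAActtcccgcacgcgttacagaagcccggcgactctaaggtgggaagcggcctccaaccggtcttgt
Chac1, chr2:119350992-119351291, plus strand: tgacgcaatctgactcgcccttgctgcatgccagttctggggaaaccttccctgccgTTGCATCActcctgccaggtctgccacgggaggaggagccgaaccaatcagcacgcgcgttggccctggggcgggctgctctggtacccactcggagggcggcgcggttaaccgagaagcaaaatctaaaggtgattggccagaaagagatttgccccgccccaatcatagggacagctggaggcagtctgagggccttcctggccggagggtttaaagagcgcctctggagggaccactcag
Vldlr, chr19:27216770-27217069, plus strand: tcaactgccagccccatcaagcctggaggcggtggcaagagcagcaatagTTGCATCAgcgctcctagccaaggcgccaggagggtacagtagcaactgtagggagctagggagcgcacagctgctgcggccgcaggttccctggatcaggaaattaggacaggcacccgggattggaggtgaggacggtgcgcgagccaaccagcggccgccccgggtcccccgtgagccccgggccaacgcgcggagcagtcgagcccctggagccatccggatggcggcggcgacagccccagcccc
Nupr1, chr7:126625421-126625720, minus strand: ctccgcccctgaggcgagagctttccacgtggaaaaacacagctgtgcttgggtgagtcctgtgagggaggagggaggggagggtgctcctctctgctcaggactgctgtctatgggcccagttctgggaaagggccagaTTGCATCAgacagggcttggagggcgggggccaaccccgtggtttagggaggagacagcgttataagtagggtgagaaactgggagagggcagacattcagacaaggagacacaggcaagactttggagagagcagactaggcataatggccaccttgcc

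The start used lies 5391 bases inside the table's gene for Nupr1 and 536 bases inside for Vldlr, whose other window, at the gene's outer start, holds no core. In Slc7a11 the first core began 66 bases upstream of the start and another 47 bases upstream, on opposite strands. The core began 23 bases upstream in Asns, 110 bases in Nupr1, 193 bases in Chac1 and 200 bases in Vldlr. These counts are a description, read against the 27.9% of all tested genes called. Of the 10 genes with it, 1 fell (Slc7a11), 0 rose, 8 did not pass and 1 was not tested. Of the 17 genes with a window but no core, 4 rose and 5 fell. With the replicate block, Gars also fell and Vldlr also rose among the genes with the core. Under that fit Shmt2 and Slc3a2 also fell among those without it. The median size of the log2 change, without sign, was 0.10 for the 9 tested genes with the core and 0.31 for the 17 without, and this difference was not tested. A match is not evidence of binding, and a core outside these windows would not be seen.

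**Figure D2:**
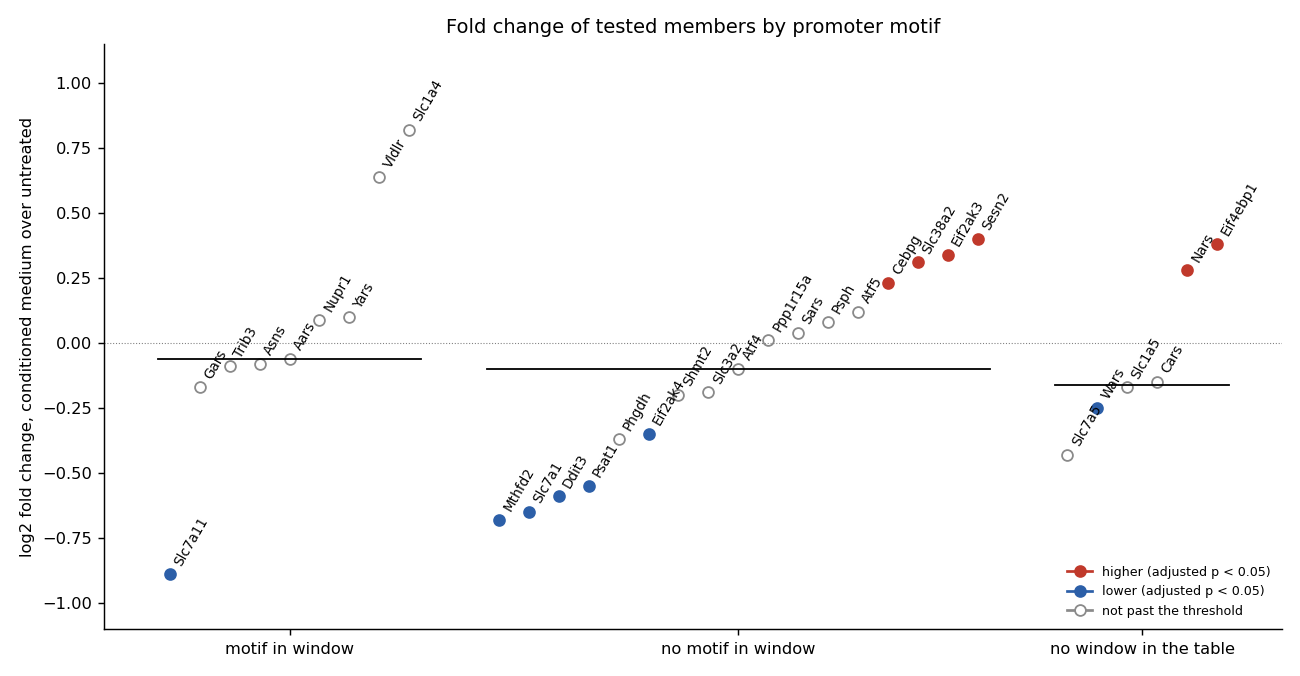
Log2 fold change (y axis) of the 32 tested genes, split by whether the promoter window holds the core, holds none, or is missing from the table, with the median of each set as a line. Called genes are filled. In the set with the core only Slc7a11, at -0.89, is filled.

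Among the eIF2α kinases, Eif2ak3 rose and Eif2ak4 fell. Counting Ppp1r15a, 66.7% of the 3 genes of this role were called, against 27.9% of all tested genes. Eif2ak3 encodes PERK, the kinase that senses misfolded protein in the ER, on chromosome 6 (GRCm38, 70844515 to 70905245). It had 52.5, 46.9 and 51.6 CPM in conditioned-medium wells, against 41.9, 36.3 and 41.1 CPM in untreated wells. Each conditioned well was above each untreated well, and the gene was 1.27-fold higher (log2 fold change 0.34, SE 0.07, adjusted p = 0.00511). Eif2ak4 encodes GCN2, the kinase activated when uncharged tRNA builds up, on chromosome 2 (118388618 to 118475234). Its levels were 23.8, 23.1 and 23.6 CPM in conditioned-medium wells, against 30.9, 28.9 and 30.0 CPM in untreated wells. The wells within each group lay close together and the groups were apart, with Eif2ak4 1.28-fold lower (log2 fold change -0.35, SE 0.05, adjusted p = 0.00114).

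Ppp1r15a encodes the stress-induced subunit that steers a phosphatase to eIF2α and ends the response. It averaged 39.2 ± 2.21 CPM in conditioned medium and 38.9 ± 1.65 CPM in untreated wells (SD, n = 3 each). Its log2 fold change was 0.01, with a 95% interval of -0.12 to 0.14 (adjusted p = 0.892). The wells of both groups interleaved.

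Of the 5 transcription factors, Cebpg rose and Ddit3 fell (40.0% called, against 27.9% of all tested genes). Atf4, the central factor, had 92.3, 91.4 and 95.1 CPM in conditioned-medium wells, against 94.0, 105 and 101 CPM in untreated wells. The groups overlapped, and its log2 fold change of -0.10 did not pass (95% interval -0.22 to 0.01, adjusted p = 0.157). Ddit3 encodes CHOP, a pro-death factor induced when stress persists, on chromosome 10 (127290774 to 127296288). It had 9.09, 11.8 and 10.1 CPM in conditioned-medium wells, against 14.2, 16.3 and 16 CPM in untreated wells. All conditioned wells were below all untreated wells, a 1.5-fold lower level (log2 fold change -0.59, SE 0.11, adjusted p = 0.00298). Ddit3 shares 68 exon bases, 4.0% of its exons, with Mars on the opposite strand. Mars was 35.8 CPM in conditioned medium and 31.6 CPM in untreated wells, a difference in the other direction. A duplicate row with the symbol Ddit3, which shares 105 of its exon bases (6.1%) on the same strand, held 0 counts.

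Cebpg encodes a C/EBP partner of Atf4 that dimerises with it on amino acid response genes. It had 81.6, 79.6 and 71.1 CPM in conditioned-medium wells, against 66.5, 70.2 and 61.1 CPM in untreated wells. The closest wells of the groups nearly met, and the rise was 1.17-fold (log2 fold change 0.23, SE 0.07, adjusted p = 0.0303). It no longer passed without conditioned-medium replicate 1 (adjusted p = 0.135) or 2 (0.106), or without untreated replicate 1 (0.0747) or 3 (0.0852). Atf5, a relative of Atf4 that is likewise controlled by translation, averaged 39.7 ± 0.643 CPM in conditioned medium and 36.7 ± 2.80 CPM in untreated wells and did not pass (adjusted p = 0.198). Without scaling beyond the total count it did (adjusted p = 0.0443). It shares 82 exon bases with Nup62 on the opposite strand. Nupr1, a stress-induced chromatin protein gene, spread widely between wells, at 22.3 ± 3.21 CPM in conditioned medium and 21 ± 4.66 CPM in untreated wells (adjusted p = 0.724).

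Among the 5 stress effectors, Sesn2 and Eif4ebp1 rose, and 1 of the 5 was too low to test. The share called was 50.0% of the 4 tested, against 27.9% of all tested genes. Sesn2 encodes sestrin-2, a leucine sensor that restrains the growth kinase mTORC1, on chromosome 4 (132492032 to 132510501). It had 35.5, 34.2 and 33.9 CPM in conditioned-medium wells, against 23.5, 25.7 and 29.1 CPM in untreated wells. The groups were apart, with Sesn2 1.32-fold higher (log2 fold change 0.40, SE 0.08, adjusted p = 0.00363). Eif4ebp1 encodes a repressor of cap-dependent translation that mTORC1 switches off, on chromosome 8 (27260329 to 27276674). Its levels were 42.3, 46.1 and 48.1 CPM in conditioned-medium wells, against 34, 35.2 and 35.7 CPM in untreated wells. Here too no wells overlapped, and the level was 1.30-fold higher (log2 fold change 0.38, SE 0.06, adjusted p = 0.00118).

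Vldlr, a lipoprotein receptor gene and Atf4 target, had 2.59, 2.36 and 3.44 CPM in conditioned-medium wells, against 1.59, 2.23 and 1.56 CPM in untreated wells. The groups were apart, but by little for the closest wells. Vldlr did not pass, at 0.64 on the log2 scale (SE 0.23, adjusted p = 0.0658). It passed with the replicate block (adjusted p = 0.0364), without the low-count filter (0.0423) and without scaling beyond the total count (0.0475). Trib3, a pseudokinase gene that damps the response, had 51 counts in conditioned medium and 44 in untreated wells. Its log2 fold change of -0.09 had a 95% interval of -0.92 to 0.74, which leaves out a 2-fold change in both directions but covers changes of the size called elsewhere in the list. Chac1, encoding an enzyme that degrades glutathione, had 8, 2 and 6 counts in conditioned-medium wells, against 7, 4 and 12 in untreated wells, and was too low to test.

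Of the 5 serine and one-carbon genes, 2 fell, 3 did not pass and 0 rose. That is 40.0% called, against 27.9% of all tested genes, of which 12.6% were called higher. So few genes do not show a direction of the role. Phgdh, Psat1 and Psph encode the enzymes that make serine from a glycolytic intermediate in successive steps. Psat1, the transaminase, had 6.07, 6.96 and 5.2 CPM in conditioned-medium wells, against 9.45, 9.62 and 7.74 CPM in untreated wells. It fell 1.47-fold with no overlap (log2 fold change -0.55, SE 0.14, adjusted p = 0.0152). That call was lost without conditioned-medium replicate 1 (adjusted p = 0.0545), untreated replicate 1 (0.0555) or untreated replicate 2 (0.0644). Phgdh, the entry enzyme, averaged 2.84 ± 0.911 CPM in conditioned medium and 3.67 ± 1.52 CPM in untreated wells, with overlapping wells (log2 fold change -0.37, 95% interval -1.09 to 0.35). Psph, the final phosphatase, averaged 5.15 ± 0.780 CPM in conditioned medium and 4.88 ± 0.577 CPM in untreated wells. Psph shares 10.4% of its exon bases with Cct6a on the opposite strand, so its count is uncertain.

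Shmt2 and Mthfd2 encode the mitochondrial enzymes that move the carbon of serine onto folate for nucleotide synthesis. Mthfd2 (chromosome 6, 83305691 to 83325908) had 12.6, 12.2 and 13.3 CPM in conditioned-medium wells, against 16.4, 21.7 and 23.1 CPM in untreated wells. The conditioned wells were nearly level and all lower, while the untreated wells were spread. Mthfd2 fell 1.6-fold (log2 fold change -0.68, SE 0.12, adjusted p = 0.00242). Shmt2 averaged 26.2 ± 1.89 CPM in conditioned medium and 30.1 ± 1.79 CPM in untreated wells and was lower in 3 of 3 same-numbered pairs. It did not pass (log2 fold change -0.20, adjusted p = 0.0624), but did in the blocked fit (0.0111) and with conditioned-medium replicate 1 left out (0.0477).

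Asns, the asparagine synthetase gene and a standard readout of Atf4 activity, had 2.72, 2.86 and 3.79 CPM in conditioned-medium wells, against 3.26, 2.68 and 3.93 CPM in untreated wells. The wells of the 2 groups interleaved. The log2 fold change of -0.08 had a 95% interval of -0.53 to 0.38 (adjusted p = 0.812), which leaves out a 2-fold change in either direction. Cth, which makes cysteine by transsulfuration, had 3 counts in the conditioned-medium wells together and 3 in the untreated wells together, at the counting floor.

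The amino acid carriers held the largest fall of the list. Of the 7 carriers, 1 rose and 2 fell (42.9% called, against 27.9% of all tested genes). Slc7a11 encodes the light chain of the cystine-glutamate exchanger, the main route of cystine for glutathione. The gene lies on chromosome 3 (GRCm38, 49892526 to 50443614, minus strand). It had 17.7, 16.5 and 21.2 CPM in conditioned-medium wells, against 34.5, 31.2 and 37.0 CPM in untreated wells. Every conditioned well lay far below every untreated well. The gene was 1.85-fold lower (log2 fold change -0.89, SE 0.10, adjusted p = 0.000186).

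Slc7a1, a cationic carrier gene that imports arginine and lysine (chromosome 5, 148327410 to 148399904), had 7.54, 8.11 and 8.26 CPM in conditioned-medium wells, against 12.8, 13.3 and 11.4 CPM in untreated wells. It was 1.56-fold lower with no overlap (log2 fold change -0.65, SE 0.09, adjusted p = 0.000859). Slc38a2, a sodium-coupled importer of small neutral amino acids that cells raise when starved of them, went the other way. It had 152, 138 and 179 CPM in conditioned-medium wells, against 120.0, 121 and 139 CPM in untreated wells. The lowest conditioned well and the highest untreated well overlapped, though the conditioned well was higher in each same-numbered pair. The rise was 1.24-fold (log2 fold change 0.31, SE 0.09, adjusted p = 0.0364). It was lost without conditioned-medium replicate 1 (adjusted p = 0.0727) or 3 (0.0681) and without untreated replicate 1 (0.120) or 2 (0.132).

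The other 4 carriers did not pass in the fit by group alone. Slc3a2 encodes the heavy chain that the Slc7a11 and Slc7a5 proteins need to reach the cell surface. It had 201, 202 and 173 CPM in conditioned-medium wells, against 232, 219 and 208 CPM in untreated wells. The groups did not overlap, and the log2 difference was -0.19 (SE 0.07, adjusted p = 0.0655). It passed with the replicate block (adjusted p = 0.00174), with DESeq2 (0.0362), without the low-count filter (0.0380), without untreated replicate 3 (0.0474) and without both libraries numbered 3 (0.0171). Slc1a5, a glutamine importer gene, had 29.6, 26.5 and 28.8 CPM in conditioned-medium wells, against 30.2, 32.0 and 33.3 CPM in untreated wells. It missed the threshold (adjusted p = 0.0741) but passed in the blocked fit (0.0397). Slc7a5, the light chain for leucine and other large neutral amino acids, averaged 2.63 ± 0.455 CPM in conditioned medium and 3.55 ± 0.239 CPM in untreated wells. All its conditioned wells were below the untreated ones, yet neither fit called it (adjusted p = 0.102, and 0.0580 with the block). Slc1a4, a carrier gene for serine, alanine and cysteine, had 48 counts in conditioned medium and 22 in untreated wells, of which untreated replicate 2 held 1. Its log2 fold change of 0.82 had a 95% interval of -0.45 to 2.08.

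Of the 7 tRNA synthetases, Nars rose and Wars fell (28.6% called, near the 27.9% of all tested genes). These enzymes load amino acids onto their tRNAs, and several cytosolic ones are Atf4 targets. Nars, for asparagine, had 198, 194 and 197 CPM in conditioned-medium wells, against 153, 160.0 and 171 CPM in untreated wells. The conditioned wells agreed closely and stood above all untreated wells, at a 1.22-fold higher level (log2 fold change 0.28, SE 0.05, adjusted p = 0.00233). Wars, for tryptophan, is also induced by interferon. It had 43.3, 46.4 and 48.0 CPM in conditioned-medium wells, against 51.5, 52.8 and 59.3 CPM in untreated wells. It was 1.19-fold lower (log2 fold change -0.25, SE 0.06, adjusted p = 0.0188), a call lost without conditioned-medium replicate 1 (adjusted p = 0.0734).

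The remaining synthetases stayed within a log2 fold change of -0.17 to 0.10. Gars, for glycine, averaged 55.5 ± 3.29 CPM in conditioned medium and 62.3 ± 4.30 CPM in untreated wells. It did not pass (adjusted p = 0.0807), but did in the blocked fit (0.00842), with conditioned-medium replicate 3 left out (0.0269) and without both libraries numbered 3 (0.0342). Cars, for cysteine, averaged 24.1 ± 0.806 CPM in conditioned medium and 26.7 ± 0.852 CPM in untreated wells without overlap (adjusted p = 0.0824). Aars for alanine, Sars for serine and Yars for tyrosine had log2 fold changes of -0.06, 0.04 and 0.10, with 95% intervals of -0.15 to 0.03, -0.06 to 0.15 and -0.05 to 0.25. Aars shares 14.3% of its exon bases with Exosc6 on the same strand, which is listed at 0 counts. Yars shares 30 exon bases with C77080 on the opposite strand, and C77080 fell (log2 fold change -0.84, adjusted p = 1.06e-05).

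**Figure D3:**
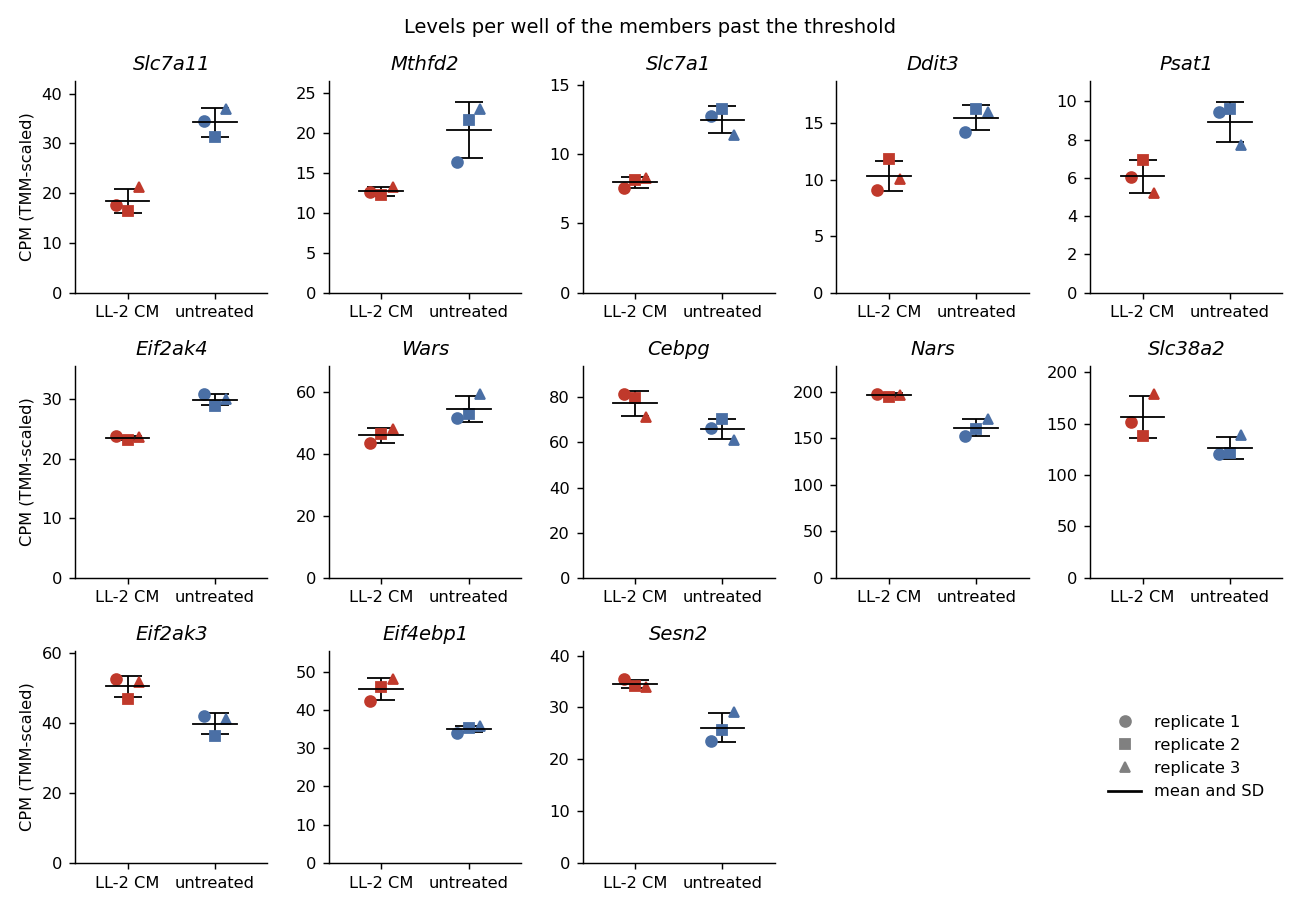
CPM per well (y axes from 0) of the 13 called genes, with conditioned medium (LL-2 CM) left and untreated right, a marker per replicate number and black bars for mean and SD. Genes run from the largest fall, Slc7a11, to the largest rise, Sesn2, and the groups overlap for Slc38a2 alone.

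Per exon length, the list spanned a wide range of levels, given here as RPKM, the CPM divided by exon length in kilobases. Slc3a2 stood highest, at 54.4 ± 4.70 RPKM in conditioned medium and 62.2 ± 3.41 RPKM in untreated wells. Nars came next in conditioned medium, at 45.0 ± 0.458 RPKM against 37.0 ± 2.13 RPKM in untreated wells, and Atf4 had 39.4 ± 0.823 RPKM against 42.4 ± 2.31 RPKM in untreated wells. Both listed light chains of the Slc3a2 protein were scarcer than this heavy chain. Slc7a11 had 1.33 ± 0.176 RPKM in conditioned medium and 2.46 ± 0.210 RPKM in untreated wells, and Slc7a5 had 0.709 ± 0.123 RPKM in conditioned medium and 0.957 ± 0.0643 RPKM in untreated wells. Slc7a7, another of its light chains, is no member and was named after its values were seen, with 19.1 ± 1.87 RPKM in conditioned medium and 19.5 ± 0.621 RPKM in untreated wells. Gars, Sars and Atf5 were neighbours that did not differ beyond their spread in untreated wells, at 20.0 ± 1.38, 19.4 ± 0.639 and 18.4 ± 1.40 RPKM. The serine synthesis genes Phgdh, Psat1 and Psph and Asns all lay between 1.13 and 2.10 RPKM in untreated wells, with overlapping errors except for Psat1, which stood above Asns and Psph. Trib3, Chac1, Vldlr, Slc1a4 and Cth lay below 1 RPKM in both groups, as did Slc7a5.

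**Figure D4:**
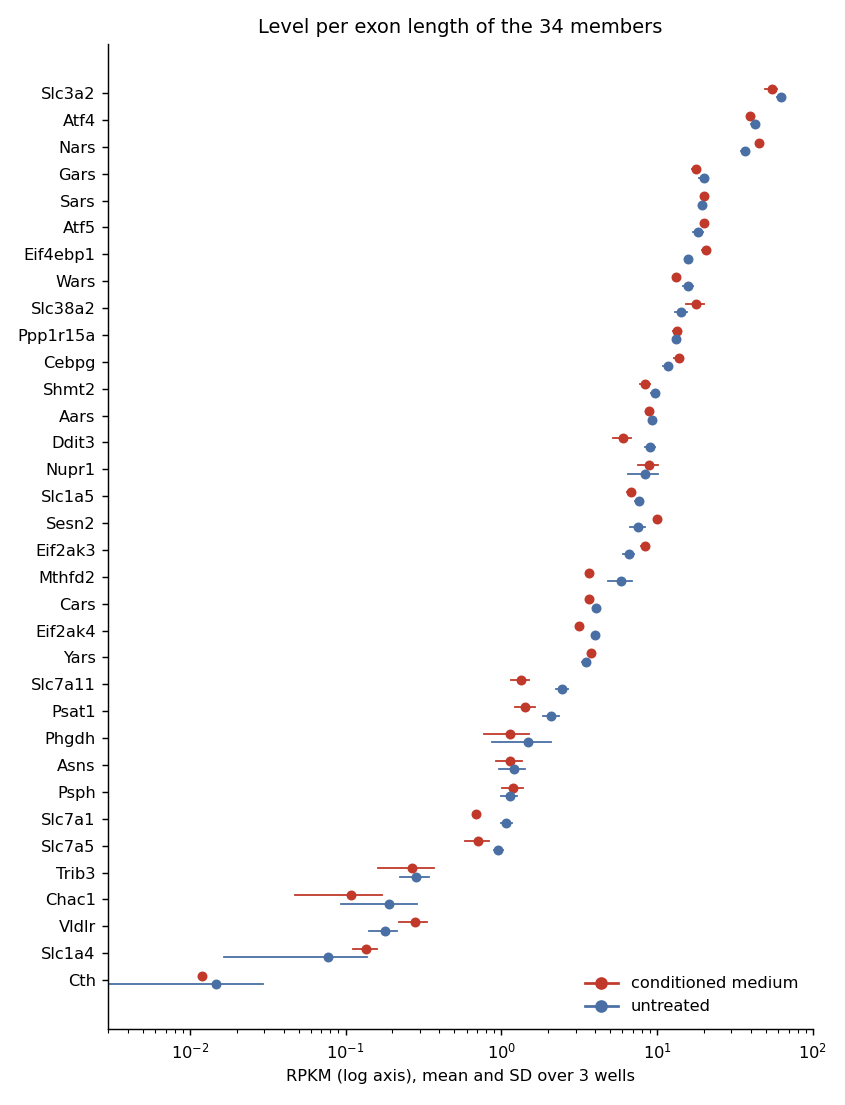
RPKM on a log axis of the 34 genes in conditioned medium (upper point of each row) and untreated wells (lower point), as mean and SD over 3 wells, ordered by the untreated level. The lower bar of untreated Cth is truncated at the axis. Slc3a2, Atf4 and Nars lead in both groups, and rises and falls are small beside the range of levels.

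The other genes of the pathway, 147 in 9 lists, were as mixed. Of the 137 tested, 19 rose and 26 fell (42.2% of calls higher), and 92 did not pass. That is 32.8% called, against 27.9% of all tested genes. With the replicate block, 25 rose and 37 fell, where 36.3% of all genes were called. Without scaling beyond the total count, 31 rose and 21 fell (59.6% higher). The count of risers was 10 without untreated replicate 2 and 12 without either replicate 1 library.

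Of 15 other genes of the eIF2 machinery, 4 fell and 0 rose. That is 26.7% called, near the 27.9% of all tested genes. With the replicate block, 4 fell and 1 rose. Eif2ak2, encoding the double-stranded RNA kinase PKR, an interferon-induced gene, averaged 72.6 ± 13.6 CPM in conditioned medium and 112 ± 7.58 CPM in untreated wells (1.54-fold lower, adjusted p = 0.00289). Impact, encoding an inhibitor of GCN2 activation, fell to 46.7 ± 5.2 CPM in conditioned medium, against 62.2 ± 3.99 CPM in untreated wells (adjusted p = 0.00493).

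Other Atf4-related factors held the widest changes, with 4 rises and 4 falls among 20 tested (40.0% called, against 27.9% of all tested genes). Ddit4, an mTORC1 inhibitor gene that Atf4, hypoxia and glucocorticoids can each induce, had 12.2, 10.6 and 10.3 CPM in conditioned-medium wells, against 3.60, 3.59 and 3.21 CPM in untreated wells (3.18-fold higher, adjusted p = 1.26e-05). Jdp2, a bZIP repressor gene, averaged 27.3 ± 3.65 CPM in conditioned medium and 11.3 ± 0.242 CPM in untreated wells (2.43-fold higher, adjusted p = 2.45e-05). Atf3, a stress-induced repressor gene downstream of Atf4, is named after its values were seen. It had 113, 116 and 102 CPM in conditioned-medium wells, against 233, 237 and 212 CPM in untreated wells (2.06-fold lower, adjusted p = 5.16e-06).

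Of 13 other cytosolic synthetases, 1 rose and 2 fell (23.1% called, against 27.9% of all tested genes). Their median log2 fold change was -0.06. Farsb, a phenylalanine synthetase subunit gene, fell with a log2 fold change of -0.24 (adjusted p = 0.0105, and 0.0528 without conditioned-medium replicate 1). Mars, for methionine, rose with a log2 fold change of 0.18 (adjusted p = 0.0353). That call was lost without any 1 library other than conditioned-medium replicate 2 (adjusted p 0.0543 to 0.143), with DESeq2 (0.103) and without both libraries numbered 3 (0.0525). Of 17 mitochondrial synthetases, Lars2 alone was called (5.88%, against 27.9% of all tested genes). Lars2 was lower, at 266 ± 68.2 CPM in conditioned medium and 401 ± 79.0 CPM in untreated wells (adjusted p = 0.0376). It was lost with DESeq2 (0.0983), without scaling beyond the total count (0.0532), and without either replicate 1 library (0.108 for conditioned medium, 0.131 for untreated), conditioned-medium replicate 3 (0.0696) or untreated replicate 2 (0.0667).

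In folate metabolism outside the list, 2 genes rose and 1 fell of 12 tested. Mtr, the methionine synthase gene, rose to 103 ± 6.08 CPM in conditioned medium, against 70.0 ± 3.33 CPM in untreated wells (1.48-fold, adjusted p = 0.000101). Amt, a glycine cleavage gene, rose 1.68-fold, with 2.49 ± 0.676 CPM in conditioned medium and 1.48 ± 0.205 CPM in untreated wells (adjusted p = 0.0481), a call lost without any 1 of the 6 libraries (adjusted p 0.0527 to 0.161), with DESeq2 (0.0663), with limma-voom (0.0655) and without both libraries numbered 3 (0.258). Among 9 tested transsulfuration and glutathione genes, 1 rose and 2 fell (33.3% called, against the same 27.9%). Gsr, encoding glutathione reductase, rose to 132 ± 8.68 CPM in conditioned medium, against 89.0 ± 1.38 CPM in untreated wells (adjusted p = 6.44e-05). Ahcy, which breaks down S-adenosylhomocysteine, fell with a log2 fold change of -0.29 (adjusted p = 0.0193). It was lost without conditioned-medium replicate 1 (0.0716), untreated replicate 2 (0.0647), untreated replicate 3 (0.0575) or both libraries numbered 3 (0.0743).

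Of 18 other carriers tested, 3 rose and 4 fell (38.9% called, against 27.9% of all tested genes). The creatine carrier gene Slc6a8 fell to 52.3 ± 4.85 CPM in conditioned medium, against 97.1 ± 10.8 CPM in untreated wells (1.85-fold lower, adjusted p = 9.82e-05). Slc43a3, a purine base carrier gene of a family named for amino acids, was 1.62-fold lower (adjusted p = 0.00280). Of 18 genes that carry amino acid signals to mTORC1, 4 rose and 3 fell (38.9% called, against the same 27.9%). Castor1, an arginine sensor gene, rose 1.59-fold, to 4.04 ± 0.192 CPM in conditioned medium, against 2.54 ± 0.180 CPM in untreated wells (adjusted p = 0.00851), and Rragd, a GTPase gene of the same pathway, was 1.47-fold lower (adjusted p = 0.00380).

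Of 15 unfolded protein response genes of the ER, 4 rose and 5 fell. Calr, the chaperone calreticulin, fell to 628 ± 31.5 CPM in conditioned medium, against 882 ± 25.8 CPM in untreated wells (adjusted p = 0.000114). Sdf2l1, an ER chaperone partner gene, was 1.26-fold lower (adjusted p = 0.00134). The median log2 fold change of this list was -0.09.

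**Figure D5:**
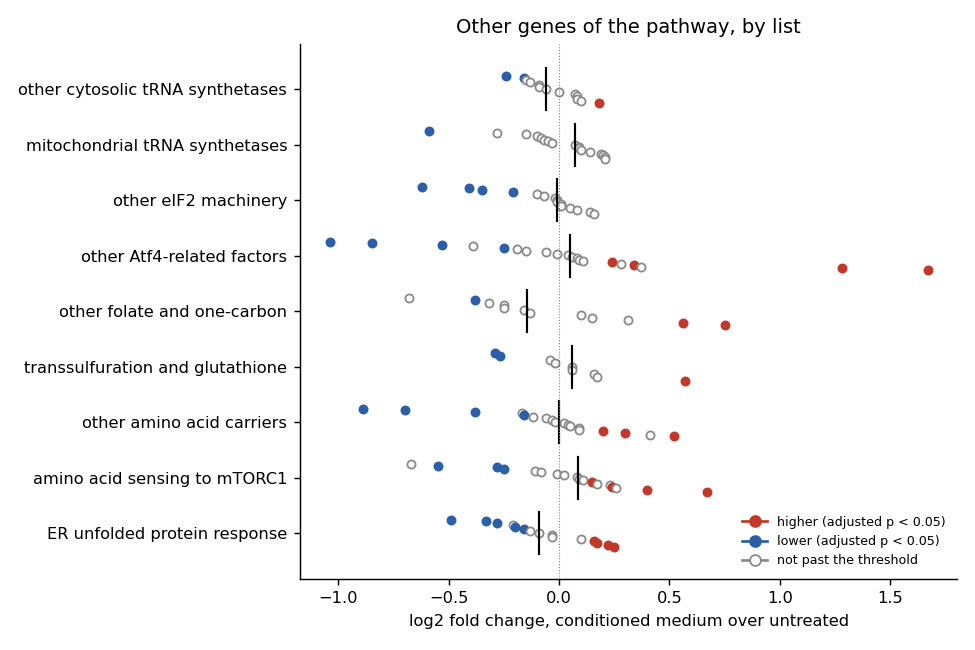
Log2 fold change (x axis) of the 137 tested genes of 9 further pathway lists, a point per gene and a black line at each list's median. Filled points passed an adjusted p of 0.05, and Ddit4 (1.67) and Jdp2 (1.28) stand furthest right, Atf3 (-1.04) furthest left.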

How the data were processed

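Messenger RNA was measured in 6 wells, 3 per group, each placed by its title. The authors deposited whole-number read counts per gene. HISAT2, featureCounts and GRCm38 are named per the submitters' processing notes. Tool versions, strandedness and the handling of multi-mapping reads were not given in the sources used here. Exons that members share with genes of many counts are therefore named beside the values. Most overlaps with genes of few counts are not, such as 8.0% of the Eif2ak3 exon bases with Gm43292 (28 counts). Symbols came from GENCODE M21 by identifier (55240 of 55421 rows).

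The whole table was fitted. Genes were kept by filterByExpr and scaled by TMM, and groups were compared with edgeR 4.0.16 (quasi-likelihood test, R 4.3.3), with Benjamini-Hochberg adjustment over 13853 genes and a threshold of 0.05. SE came from the F statistic, and 95% intervals from it and the total degrees of freedom of the test. That total adds to the residual ones those borrowed from the spread of all genes. Levels are TMM-scaled CPM, and RPKM divides these by the table's exon length. The script was tested on simulated data.

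The members and lists were chosen with earlier results of these data known. All members are named, and from each other list the 2 largest called changes with a mean of at least 1 CPM, or the smallest p where none passed.

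Deviations from the group means correlated at 0.328, 0.161 and 0.309 for same-numbered wells, and at -0.289 to 0.0112 otherwise. The labels do not state a pairing. It was taken from these values, and only for the blocked fit and the comparisons of same-numbered pairs. The main test, with its SE and intervals, used the group alone. Blocked results are given where they change a member's call, and as counts for all genes and the other pathway genes. Marker calls are from the fit without the block. With it, 4 of the 6 tested stromal markers were called higher, against 0 without it, and some other marker calls changed. Alternatives were RLE scaling, no scaling, DESeq2 1.42.0, limma-voom 3.58.1, 2 other filters, a replicate block and omission of each library in turn. Leaving out both libraries numbered 3, which the second principal component set apart, was added after seeing the data.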

Additional observations from a re-analysis of the deposited data

How the results depend on the processing

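No member called by the main test turned direction under any of the 14 alternatives. Under RLE scaling, limma-voom and a mean of at least 1 CPM no tested member changed its call, though that filter left out 2 of the 32. With the replicate block 11 members fell, against 7 without it, and 7 rose. Among the members the block changed no other call than the 5 named with it. Leaving out 1 library gave 4 to 5 risers and 6 to 8 fallers among the members, and no more than 4 lost calls at a time. Over all genes, calls higher numbered 1146 to 1653 when 1 library was left out and 2656 without scaling beyond the total count. For the other pathway genes they numbered 10 to 16 and 31. Fewer libraries give less power, and other causes were not tested. Chac1 and Cth had too few counts to be tested. Trib3 and Slc1a4 had few counts and wide intervals, and the untreated wells of Slc1a4 also spread widely; depth and spread were not told apart.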
